A study of Homo sapiens with 20 samples.

Results

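The type I interferon gene IFNB1 and the type III interferon genes IFNL1, IFNL2 and IFNL3 were followed in RNA-seq libraries of 4 human lung cancer cell lines in which ADAR had been knocked out. These 4 genes, of 58233 gene identifiers in the count files, were taken by symbol and were chosen with their read counts in these libraries known, so their levels and differences are given as a description with no test. The study made 20 libraries, 2 for each of 10 conditions, and the 2 libraries of a condition carried different single guide RNAs (sgRNAs) against the same target. All cells were transduced with a lentivirus carrying Cas9 and an sgRNA, including the controls, whose sgRNAs were against GFP, a sequence absent from the human genome. HCC366, labelled a lung adenosquamous carcinoma, NCI-H1650, a lung adenocarcinoma, and NCI-H196, a variant small cell lung cancer, were compared as ADAR against GFP without added interferon, 5 days after transduction. A549, a lung adenocarcinoma, was compared as ADAR against GFP after vehicle (sterile water) and after 24 hours of IFN-β at 10 ng/mL. The labels name no single-cell clone. The 2 libraries of a condition differ in guide as well as culture, and their spread holds both.

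Interferons are secreted cytokines that cells make after sensing foreign or misplaced nucleic acid. ADAR edits adenosine to inosine in RNA duplexes, and cells without it are known to sense their own RNA duplexes through MDA5 (IFIH1) and PKR. IRF3, IRF7, NF-κB and the ATF2/JUN dimer then bind the IFNB1 and IFNL promoters. IFN-β signals through the IFNAR1/IFNAR2 receptor found on nearly all cells, while the lambda interferons signal through IFNLR1 and IL10RB, a receptor found mainly on epithelial cells; both receptors act through JAK kinases and STAT2 on the same interferon-stimulated genes. Recombinant IFN-β added to a culture is a protein and gives no reads, so a read of IFNB1 in treated A549 came from the cells' own transcript.

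The promoters are shown because the 4 genes are read together below and because IFNL2 and IFNL3 are near copies of each other. IFNB1 (ENSG00000171855) is a gene of 1 exon on GRCh37 chromosome 9, 21077103 to 21077941, minus strand. IFNL1 (ENSG00000182393; 39787047 to 39789313, plus strand, 5 exons), IFNL2 (ENSG00000183709; 39759036 to 39760828, plus strand, 6 exons) and IFNL3 (ENSG00000197110; 39734095 to 39735890, minus strand, 5 exons in the canonical transcript) lie in a cluster on chromosome 19. No other annotated gene overlapped any of them. The 250 bases before each annotated start, read from GRCh37 and identical to the RefSeq promoter table's sequence for all 4 genes, are printed 5′ to 3′ on the gene's strand with capitals marking each match to the interferon regulatory factor core AANNGAAA on either strand.
IFNB1 (chr9:21077942-21078191, strand −): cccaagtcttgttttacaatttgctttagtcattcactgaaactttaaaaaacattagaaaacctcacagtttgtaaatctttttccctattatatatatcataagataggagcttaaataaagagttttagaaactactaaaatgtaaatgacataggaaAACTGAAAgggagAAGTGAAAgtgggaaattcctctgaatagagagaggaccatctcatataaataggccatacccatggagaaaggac
IFNL1 (chr19:39786797-39787046, strand +): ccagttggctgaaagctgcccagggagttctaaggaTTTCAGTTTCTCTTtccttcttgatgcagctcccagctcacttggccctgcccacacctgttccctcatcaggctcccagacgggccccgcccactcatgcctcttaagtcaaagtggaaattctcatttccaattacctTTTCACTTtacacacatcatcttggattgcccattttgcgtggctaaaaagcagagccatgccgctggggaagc
IFNL2 (chr19:39758786-39759035, strand +): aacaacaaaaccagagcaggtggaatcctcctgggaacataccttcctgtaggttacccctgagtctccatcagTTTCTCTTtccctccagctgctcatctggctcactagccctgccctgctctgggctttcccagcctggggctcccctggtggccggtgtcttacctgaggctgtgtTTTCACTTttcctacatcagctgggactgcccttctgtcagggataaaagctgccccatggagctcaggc
IFNL3 (chr19:39735891-39736140, strand −): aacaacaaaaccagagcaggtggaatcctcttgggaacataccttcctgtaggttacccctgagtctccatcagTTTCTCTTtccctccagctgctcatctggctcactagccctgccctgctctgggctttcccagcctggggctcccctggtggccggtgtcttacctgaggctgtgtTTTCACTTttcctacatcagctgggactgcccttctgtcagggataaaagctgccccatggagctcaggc
The core was found at 2 places in the IFNB1 window, 89 to 82 and 76 to 69 bases before the start. The IFNL1 window held 3 matches, at 214 to 207 and 208 to 201, which overlap, and at 74 to 67. IFNL2 and IFNL3 each held 2, at 176 to 169 and 70 to 63. Of 35116 RefSeq promoters read over the same 250 bases, 20.3% held at least 1 match, 4.54% at least 2 and 0.920% at least 3. The IFNL2 and IFNL3 windows were identical at 99.6% of positions and differed only by C31T, counted from the first printed base with the IFNL2 base first. Their transcripts were 97.2% identical over 686 aligned bases, and 5.11% of the 150-base windows of the IFNL2 transcript occurred unchanged in IFNL3; no such window of IFNL1 occurred in either, and IFNL1 was 78.7% identical to IFNL2 and 82.5% to IFNL3. A read that fitted IFNL2 and IFNL3 equally well is left out by such counting, and how many reads were left out or placed on the wrong gene of the pair was not measured, so their split is given as uncertain.

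Libraries held 62679 to 19520189 reads on genes, with a median of 6411279. The shallowest, NCI-H196 GFP sgRNA 2, is far below the next (1026443 reads): 3 reads in it would stand for 47.9 CPM on its raw total, so its zeros carry no information on genes at the level of interferons. In HCC366 ADAR sgRNA 2, 85.6% of counted alignments were not unique, against 22.5% to 59.1% in the other libraries. In every line and treatment the targeted gene ADAR was lower in each knockout library than in either control, with mean levels of 246 against 611 CPM in NCI-H1650, 439 against 878 in HCC366, 417 against 543 in NCI-H196, 263 against 561 in A549 with vehicle and 1041 against 1575 in A549 with IFN-β. Transcript remaining after Cas9 cutting does not measure protein. Of 8 leukocyte markers, 6 had a read. CD14 had 209 reads in 19 libraries (at most 8.02 CPM) and PTPRC 38 reads in 8 libraries (at most 2.12 CPM). MS4A1, CLEC4C, LILRA4 and CD68 had at most 2 reads in any library, and LYZ and CD3E had 0 reads in every library. The summed level of the 8 was 0, in the shallow NCI-H196 GFP sgRNA 2, to 9.18 CPM, in NCI-H196 ADAR sgRNA 1. The squamous keratin KRT5 was at 0 to 1.58 CPM in HCC366, labelled adenosquamous, and in NCI-H196, labelled a variant small cell line, the neuroendocrine regulator INSM1 was at 0 while the neural adhesion molecule NCAM1 was at 8.15 to 14.1 CPM.

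NCI-H1650 gave the most interferon reads, already had them in the GFP libraries, and had more of all 4 genes after ADAR knockout. IFNB1, the type I gene, had 6 and 8 reads in the GFP libraries (sgRNA 1 and sgRNA 2, the order kept below) and 59 and 59 in the ADAR libraries, which is 1.43 ± 0.332 CPM (SD, n = 2) against 10.3 ± 1.02. IFNL1 had 32 and 44 reads with GFP and 174 and 180 with ADAR, or 7.76 ± 1.97 CPM against 30.9 ± 3.81 (SD, n = 2). IFNL2 had 7 and 6 reads with GFP and 30 and 37 with ADAR, and IFNL3 had 10 and 9 with GFP and 45 and 50 with ADAR. For each of the 4 genes, both ADAR libraries lay above both GFP libraries, as did 17.6% of all 33368 genes with a read in this line. CPM here is the read count scaled to 1e6 reads after TMM scaling over all 20 libraries. The ratio of pooled CPM, with an exact 95% interval that covers counting error only, was 7.19 (4.12 to 13.6) for IFNB1 and 4.08 (3.31 to 5.06) for the sum of the 3 type III genes. Within type III, the ratios were 3.97 for IFNL1 (3.09 to 5.16), 4.40 for IFNL2 (2.40 to 8.68) and 4.27 for IFNL3 (2.59 to 7.39), so the 3 could not be told apart.

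HCC366 had few reads of the 4 genes, and for 3 of them both ADAR libraries had a higher CPM than both GFP libraries. IFNB1 had 0 and 2 reads with GFP and 3 and 6 with ADAR, or 0.276 ± 0.391 CPM against 2.68 ± 0.670 (SD, n = 2). IFNL1 had 1 and 4 reads with GFP and 3 and 12 with ADAR (0.887 ± 0.310 CPM against 4.26 ± 2.90; SD, n = 2). IFNL3 had 0 and 2 against 2 and 4. In these 3 genes the ADAR libraries lay above the GFP libraries, against 14.4% of 29655 genes with a read. In GFP sgRNA 1, however, 3 reads would be 2.00 CPM. That is above IFNL3 in ADAR sgRNA 1 (1.47 CPM) and near IFNB1 and IFNL1 there (2.21 CPM for both). The 0 or 1 reads of GFP sgRNA 1 thus say little on a separation from that library. IFNL2 had 0 and 4 reads with GFP and 1 and 2 with ADAR, and the groups overlapped. The pooled ratio was 7.06 (1.46 to 67.1) for IFNB1 and 3.42 (1.61 to 7.74) for type III. It was 4.70 for both IFNL1 (1.63 to 16.5) and IFNL3 (0.841 to 47.7), and the IFNL3 interval included 1. None of the 4 genes passed the filter on low counts in this line. The IFNB1 ratio rested on 2 GFP reads, and with HCC366 GFP sgRNA 2 left out, the library that held them, it became a bound of at least 0.46 on the log2 scale against 2.82 with it.

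In NCI-H196 the type III signal was IFNL1 alone. IFNL1 had 10 and 0 reads with GFP and 9 and 62 with ADAR, or 0.508 ± 0.718 CPM against 6.74 ± 0.552 (SD, n = 2). IFNB1 had 2 and 0 reads with GFP and 2 and 22 with ADAR, or 0.102 ± 0.144 CPM against 1.97 ± 0.792 (SD, n = 2). IFNL2 had 0 reads in all 4 libraries and IFNL3 had 1, in ADAR sgRNA 2, so no fold is given for either. Both ADAR libraries lay above both GFP libraries for IFNB1 and IFNL1, as for 12.3% of 33120 genes with a read, but this rests on GFP sgRNA 1 alone: in GFP sgRNA 2, 3 reads would be 24.5 CPM on the scaled total, above every ADAR value of these genes. Pooled ratios were 11.8 (2.94 to 103) for IFNB1 and 7.10 (3.65 to 15.4) for type III. All GFP reads came from sgRNA 1, and of the 4 genes only IFNL1 passed the filter on low counts in this line. Without ADAR sgRNA 2, IFNB1 had 2 reads with ADAR and 2 with GFP, too few for a ratio. Without the shallow GFP sgRNA 2 library the log2 ratios were 3.55 for IFNB1 and 2.81 for type III, against 3.57 and 2.83 with it, and without GFP sgRNA 1 no ratio could be had.

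A549 made almost no reads of the 4 genes in 3 of its 4 conditions. With vehicle, the only read was 1 of IFNL1 in GFP sgRNA 1, and the ADAR libraries had 0 reads of all 4 genes, where 3 reads over the group would be 0.212 CPM. With IFN-β, the GFP libraries had 1 read in all, of IFNL2. In the ADAR libraries with IFN-β, IFNB1 had 17 and 62 reads, or 3.31 ± 1.49 CPM (SD, n = 2). IFNL1 had 24 and 88 reads (4.69 ± 2.13 CPM), IFNL2 28 and 86 (4.88 ± 1.65 CPM) and IFNL3 15 and 64 (3.25 ± 1.78 CPM; all SD, n = 2). All 8 values lay above every value of the other 3 A549 conditions, and the share of all genes that did so was not counted. Both ADAR libraries exceeded both GFP libraries for all 4 genes with IFN-β, against 18.7% of 32407 genes with a read, and for 0 of the 4 with vehicle, against 11.6% of 31008. Set against a floor of 3 reads over the GFP libraries, IFNB1 was at least 24.8-fold higher with ADAR knockout and IFN-β, IFNL1 at least 35.2-fold and IFNL3 at least 24.8-fold. For IFNL2, with 1 GFP read, the ratio was 107 (18.9 to 4282), and for type III in sum it was 288 (51.2 to 11395). The floor was used only for groups at 0, so these ratios are not comparable in size with the bounds. Both ratios rest on that 1 read, from GFP sgRNA 1. Without that library the type III log2 ratio was a bound of at least 5.85, and without GFP sgRNA 2 it was 6.83, against 8.17 with both. The sgRNA 2 library was higher than sgRNA 1 for all 4 genes, with 16.7 against 8.89 CPM for type III in sum. Knockout by the same guides with vehicle gave 0 reads, and IFN-β in GFP cells 1 read. The members were selected on this pattern, so its difference between IFN-β and vehicle was not tested for them.

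**Figure D1:**
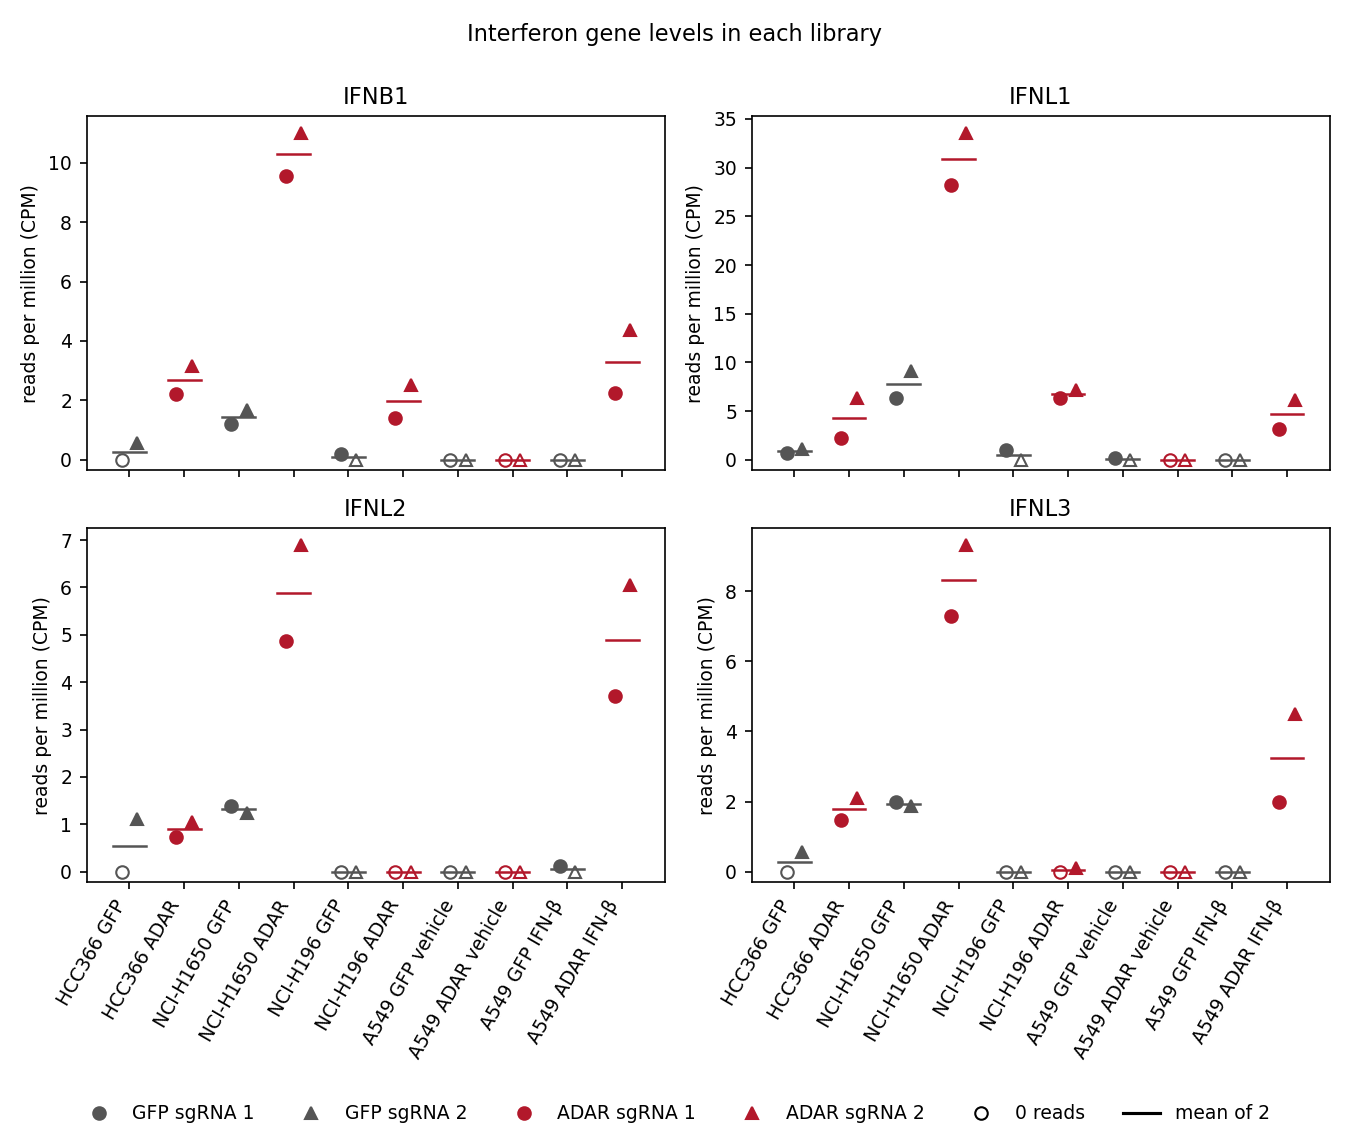
Level (CPM, TMM-scaled, linear axes that differ between panels) of IFNB1, IFNL1, IFNL2 and IFNL3 in each of the 20 libraries; circles are sgRNA 1, triangles sgRNA 2, red is ADAR, grey is GFP, open symbols mark 0 reads and bars the mean of 2. NCI-H1650 ADAR has the highest mean in every panel (for IFNL2 its libraries overlap A549 ADAR with IFN-β), A549 is near 0 except for ADAR with IFN-β, and NCI-H196 is near 0 for IFNL2 and IFNL3.

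Ordered by mean level, IFNB1 was highest in NCI-H1650 ADAR (9.57 and 11.01 CPM), which stood apart from the next. A549 ADAR with IFN-β, HCC366 ADAR, NCI-H196 ADAR and NCI-H1650 GFP followed in that order, and each overlapped its neighbour. HCC366 GFP, NCI-H196 GFP and the other A549 conditions lay below them and were not separable from each other. In NCI-H196 GFP sgRNA 2 and HCC366 GFP sgRNA 1, 3 reads would be 24.5 and 2.00 CPM. Both floors are above the NCI-H1650 GFP libraries (1.19 and 1.66 CPM), so the place of HCC366 GFP and NCI-H196 GFP rests on their other library. Type III in sum had the same top condition at 45.1 ± 6.69 CPM (SD, n = 2). A549 ADAR with IFN-β (12.8 ± 5.56) and NCI-H1650 GFP (11.01 ± 1.78) overlapped, as did HCC366 ADAR (6.94 ± 3.57) and NCI-H196 ADAR (6.80 ± 0.633), while HCC366 GFP followed at 1.72 ± 1.48. NCI-H1650 without knockout thus held about the type III level of A549 with knockout and IFN-β. Bulk libraries cannot tell apart fewer cells making a transcript and less of it per cell.

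Type I and type III reads were next compared within each line. The fold of IFNB1 divided by the fold of type III was 1.76 in NCI-H1650 (exact 95% interval 0.963 to 3.45), 2.06 in HCC366 (0.333 to 22.4) and, in NCI-H196, 1.67 (0.319 to 16.6). The estimate was above 1 in all 3 lines and every interval included 1, so a larger fold for either type was not detectable at this depth. In A549 with IFN-β the type I ratio was only a bound and the types were not compared. Over the 20 libraries, log2 CPM of IFNB1 and of type III had a Pearson r of 0.97 (Spearman rho 0.93); the points share libraries and depths and the line and treatment.

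**Figure D2:**
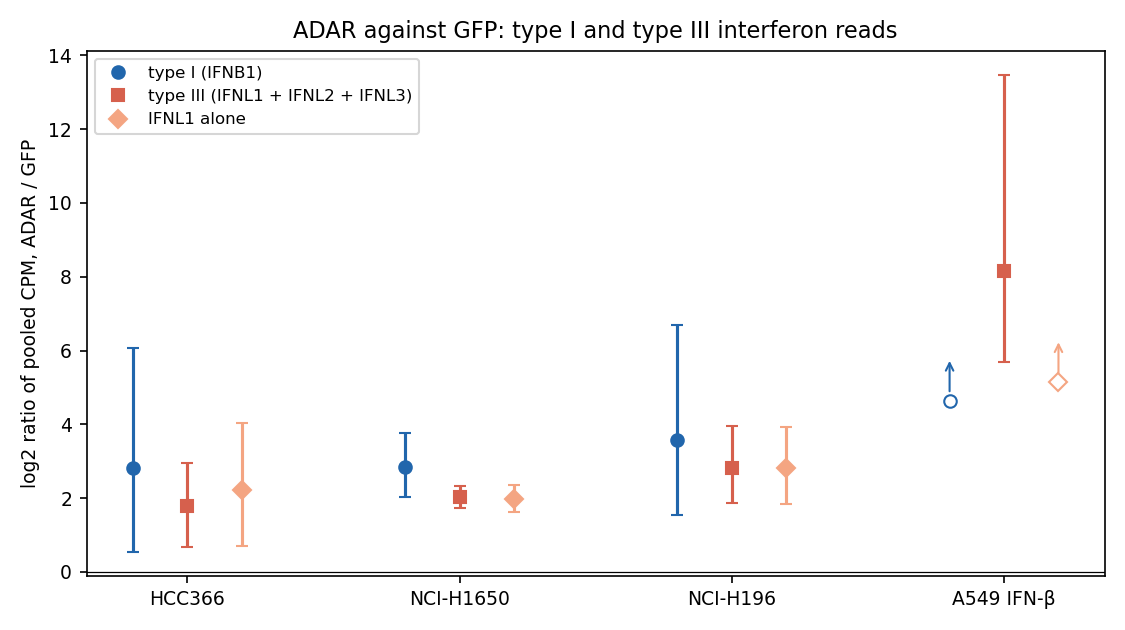
Log2 ratio of pooled CPM, ADAR over GFP, for type I (IFNB1, circles), type III in sum (squares) and IFNL1 alone (diamonds) in 4 comparisons; bars are exact 95% counting intervals, and open symbols with arrows are lower bounds against 3 reads. Type I and type III intervals overlap in HCC366, NCI-H1650 and NCI-H196. In A549 with IFN-β the type III square rests on 1 GFP read and is not comparable in size with the bounds. A549 with vehicle has too few reads and is not drawn.

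By read number, type III made up most of the reads of the 4 genes wherever they were seen. Its share in the ADAR libraries was 81.4% in NCI-H1650 (exact binomial 95% interval 78.1 to 84.3), 79.4% in A549 with IFN-β (75.03 to 83.4), 75% in NCI-H196 (65.1 to 83.3) and 72.7% in HCC366 (54.5 to 86.7), and these intervals overlap. In NCI-H1650 GFP it was 88.5% (81.5 to 93.6). The share counts 3 genes against 1. Per kilobase of exon, the pooled level in NCI-H1650 ADAR was 39.6 CPM for IFNL1, 12.2 for IFNB1, 8.33 for IFNL3 and 6.11 for IFNL2. In A549 ADAR with IFN-β the same quantity was 6.64 for IFNL1, 5.51 for IFNL2, 4.33 for IFNB1 and 3.67 for IFNL3. IFNL1 was thus the highest of the 4 per length in NCI-H1650. In A549 its 2 libraries (4.11 and 7.99) overlapped those of IFNL2 (3.90 and 6.36), on 112 and 114 pooled reads, so their order was not settled. Reads that fit IFNL2 and IFNL3 equally well are left out of both, and their number was not measured.

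Which lambda gene supplied the type III reads differed between the lines. IFNL1 held 98.6% of them in NCI-H196 ADAR (92.5 to 100), 68.6% in NCI-H1650 ADAR (64.4 to 72.6), 62.5% in HCC366 ADAR (40.6 to 81.2) and 36.7% in A549 ADAR with IFN-β (31.3 to 42.4). The intervals of NCI-H196, NCI-H1650 and A549 did not overlap. In the 2 libraries of a condition the share was 69.9% and 67.4% in NCI-H1650 ADAR, 35.8% and 36.97% in A549 ADAR with IFN-β and 100% and 98.4% in NCI-H196 ADAR, 65.3% and 74.6% in NCI-H1650 GFP, and, on 6 and 18 reads, 50% and 66.7% in HCC366 ADAR. In NCI-H1650 GFP it was 70.4% (60.8 to 78.8), close to that with ADAR knockout. IFNL2, whose promoter window differs from that of IFNL3 at 1 base, held 37.4% of type III reads in A549 (31.9 to 43.1) and 12.98% in NCI-H1650 (10.2 to 16.2). In NCI-H196 it had 0 of 72 reads, which by the exact binomial limit allows up to 4.99%. IFNL3 held 25.9%, 18.4% and 1.39% in the same order. Only A549 received IFN-β and its vehicle libraries had next to no reads, so line and treatment cannot be told apart in its share.

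**Figure D3:**
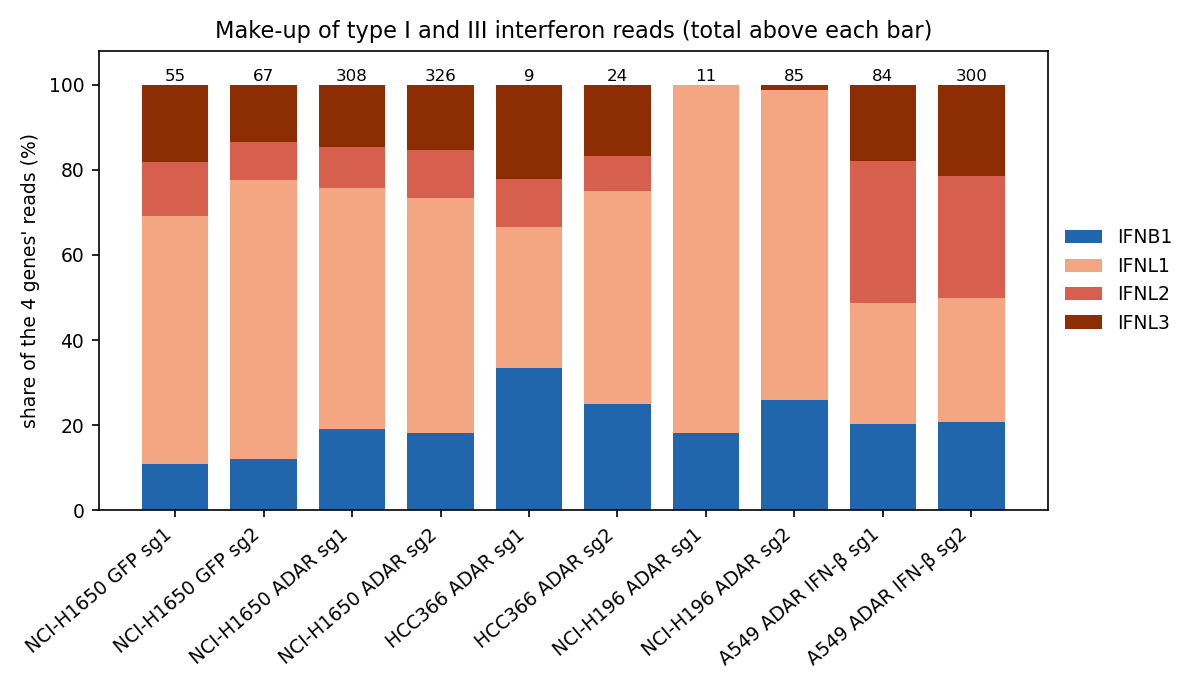
Share of the reads of the 4 genes (percent, axis from 0) that came from IFNB1, IFNL1, IFNL2 and IFNL3 in 10 libraries with reads; the total number of reads stands above each bar, and low totals make the HCC366 bars and NCI-H196 ADAR sgRNA 1 imprecise. IFNL1 dominates in NCI-H196 and is a smaller part in A549, and the 2 libraries of NCI-H1650 ADAR and of A549 ADAR with IFN-β have like shares.

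The other interferon genes were nearly silent. Of 18 other interferon genes, 12 had a read and none passed the filter on low counts in any line. The 13 IFNA genes had 13 reads in all 20 libraries together, from 7 genes (IFNA1, IFNA5, IFNA8, IFNA13, IFNA14, IFNA16 and IFNA21), with at most 3 per gene, where the 4 members had 1296. IFNE, the interferon epsilon of epithelia, had 88 reads and IFNK, the interferon kappa of keratinocytes, 70, each spread over 15 libraries. IFNE stood at 1.12 CPM in NCI-H1650 GFP and 0.904 in NCI-H1650 ADAR, and at 0.796 in A549 GFP and 0.590 in A549 ADAR, both with IFN-β. IFNL4, the fourth lambda gene, whose GRCh37 locus (chromosome 19, 39736954 to 39739496) lies beside IFNL3, had 18 reads in 9 libraries and at most 4 in any. IFNW1 had 5 reads and IFNG 2.

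The receptors were read for both interferon types. IFNAR1 stood at 50.9 to 87.3 CPM (means per condition) in all lines. IFNLR1, the specific chain of the lambda receptor, stood at 14.8 and 19.4 CPM in the ADAR libraries of NCI-H196 and at 20.7 in GFP sgRNA 1 (the shallow GFP library had 0 reads), at 12.0 and 12.7 in NCI-H1650 (ADAR and GFP means), at 0.963 to 2.09 in A549, and had 0 reads in HCC366. These receptor genes lie outside the rule for named genes and were picked after their values were seen. Of the 9 receptor and JAK/STAT genes, edgeR's quasi-likelihood test called 0 in HCC366 (unadjusted p under 0.05 for 0, and DESeq2 called 0), 2 in NCI-H1650, 2 in NCI-H196, 0 in A549 with vehicle and 1 in A549 with IFN-β, and none of the 4 receptor chains (IFNAR1, IFNAR2, IFNLR1 and IL10RB) rose or fell where tested; IFNLR1 was not tested in HCC366. STAT2, a transcription factor downstream of both receptors, rose in NCI-H196 (log2 fold change 0.56, SE 0.11, adjusted p = 4.6e-06) and in A549 with IFN-β (0.31, SE 0.10, adjusted p = 0.021). JAK1 rose in NCI-H1650 (0.31, SE 0.10, adjusted p = 0.037). DESeq2 called 0 of the 9 in NCI-H1650, 0 in NCI-H196 and 1, STAT2, in A549 with IFN-β.

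For the wider pathway, 78 genes in 7 lists were tested as ADAR against GFP in the fit across all genes. The lists were chosen with earlier results of these data known. Their counts beside the share of all genes are therefore a description and no test of the lists. With adjusted p under 0.05, 24 rose in NCI-H1650, where 6.18% of all genes tested rose, 41 rose in NCI-H196, where 10.3% rose, 28 rose in A549 with IFN-β, where 10.8% rose, and 6 rose in HCC366, where 1.2% rose. None fell apart from 1 in NCI-H196, where 7.5% of all genes fell. In A549 with vehicle 0 changed, where 0.0324% of genes rose. There 3 had an unadjusted p under 0.05, and DESeq2 also called 0. In NCI-H196, DESeq2 called 3 of the 78 where edgeR called 42, and edgeR called 4 without GFP sgRNA 1 and 45 without the shallow GFP sgRNA 2, so these calls depend on 1 control library. In HCC366 edgeR called 0 with either GFP library left out. Of the genes named below, 10 of 15 calls in NCI-H1650 and 15 of 22 in A549 with IFN-β were kept whichever library was left out, against 3 of 19 in NCI-H196 (TNFAIP3, CXCL8 and IL6) and 0 of 3 in HCC366 (JUN, TNFAIP3 and CXCL8, each lost without GFP sgRNA 1 or GFP sgRNA 2). These fractions do not compare the lines. Most named genes were picked by their change in A549 with IFN-β, and the A549 fit held more libraries (8) than the other fits. The 16 calls lost in NCI-H196 were all lost without GFP sgRNA 1. In NCI-H1650 the calls of TICAM1, RIGI, JAK1, OASL and CXCL3 were lost without 1 or more of GFP sgRNA 1, GFP sgRNA 2 and ADAR sgRNA 2. In A549 with IFN-β those of TICAM1, TRAF6, TBK1, ATF2, STAT2, RSAD2 and OASL were each lost without ADAR IFN-β sgRNA 2, and that of TICAM1 also without GFP IFN-β sgRNA 1 and those of TRAF6, TBK1 and ATF2 also without GFP IFN-β sgRNA 2.

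Sensors and adaptors upstream of the interferon promoters rose in part. Of the 12, 5 rose in NCI-H1650, 6 rose and 1 fell in NCI-H196, 6 rose in A549 with IFN-β and 0 of 11 tested in HCC366 (unadjusted p under 0.05 for 2, and 0 with DESeq2). IKBKE, the kinase that with TBK1 phosphorylates IRF3, rose in A549 with IFN-β (log2 fold change 1.27, SE 0.17, adjusted p = 2.0e-06), in NCI-H1650 (1.04, SE 0.18) and in NCI-H196 (1.12, SE 0.20). RIGI, a sensor of RNA ends also called DDX58, rose by 0.68, 0.39 and 1.01 in the same order, and TICAM1, the adaptor of TLR3, by 0.76, 0.72 and 0.78. TRAF6 and TBK1, an adaptor and a kinase, rose by 0.58 and 0.48 in A549 with IFN-β, and in NCI-H1650, with no call, TRAF6 was at 0.16 and TBK1 at −0.05. The gene that fell in NCI-H196 was MAVS, the adaptor of MDA5 and RIG-I (−0.30), named after its value was seen.

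Of the 12 factors that bind or act at the interferon promoters, 8 rose in A549 with IFN-β, 7 in NCI-H196, 3 in NCI-H1650 and 1 in HCC366. DESeq2 called 8, 0, 3 and 2 in the same order. The edgeR calls in A549 with IFN-β and in NCI-H196 included the coactivators CREBBP and EP300, named outside the rule for named genes. JUN, of the ATF2/JUN dimer, rose in 4 of the 5 comparisons, by 1.89 in A549 with IFN-β (SE 0.12, adjusted p = 6.3e-13), 2.64 in HCC366 (SE 0.46, adjusted p = 0.038), 1.21 in NCI-H1650 and 1.03 in NCI-H196. NFKB1, a subunit of NF-κB, rose by 1.18 in A549 with IFN-β, 0.81 in NCI-H1650 and 0.97 in NCI-H196, and stood at 1.03 in HCC366 with no call (adjusted p = 0.15). IRF1, an interferon-induced activator, rose by 0.98, 0.84 and 1.00 in A549 with IFN-β, NCI-H1650 and NCI-H196. REL, another NF-κB subunit, rose in A549 with IFN-β (1.25) and NCI-H196 (0.73), and ATF2 in A549 with IFN-β (0.57).

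The cytokines induced by NF-κB had the highest median log2 fold change of the lists tested, at 2.50 in A549 with IFN-β, 2.35 in HCC366, 1.95 in NCI-H196 and 1.89 in NCI-H1650, where the median of all genes tested lay between −0.014 and 0.0066. All 7 tested cytokine genes rose in A549 with IFN-β, all 9 in NCI-H196, 5 of 6 in NCI-H1650 and 4 of 9 in HCC366. DESeq2 called 6, 1, 2 and 7 in the same order. CXCL8, the neutrophil chemokine interleukin 8, went from 6.98 to 182 CPM (means) in A549 with IFN-β (log2 fold change 4.69, SE 0.24, adjusted p = 3.9e-15) and stood at −0.19 with vehicle. It rose by 1.38 in NCI-H196, 1.78 in NCI-H1650 and 2.88 in HCC366. IL6 rose by 2.50 in A549 with IFN-β, 1.15 in NCI-H1650 and 1.43 in NCI-H196. CXCL3, a related chemokine, rose by 1.81, 2.81 and 2.27 in that order. CCL20 and IL1A, a chemokine and the alarmin interleukin 1 alpha, rose in A549 with IFN-β (3.33 and 3.49) and in NCI-H196 (2.60 and 1.07).

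Of the 6 feedback genes, all rose in NCI-H196, 4 in NCI-H1650, 3 in A549 with IFN-β (the other 3 were at −0.58 to −0.09 with no call) and 1 in HCC366. With DESeq2 the calls were 2 in NCI-H196, 3 in NCI-H1650, 3 in A549 with IFN-β and 2 in HCC366. TNFAIP3, the NF-κB inhibitor A20, rose by edgeR in the same 4 comparisons. It rose by 3.07 in A549 with IFN-β (SE 0.15, adjusted p = 1.5e-15), 1.75 in NCI-H196, 1.73 in NCI-H1650 and 1.99 in HCC366. NFKBIA, which holds NF-κB in the cytoplasm, rose by 1.23, 0.69 and 1.26 in A549 with IFN-β, NCI-H1650 and NCI-H196. SOCS3, an inhibitor of cytokine receptor signalling, rose in A549 with IFN-β (1.52) and NCI-H196 (0.82).

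Interferon-stimulated genes are the targets of both interferon types. Of those tested, 11 of 12 rose in NCI-H196, 5 of 12 in NCI-H1650, 3 of 11 in A549 with IFN-β and 0 of 9 in HCC366. In HCC366, 4 had an unadjusted p under 0.05 and DESeq2 called 1. DESeq2 called 0 in NCI-H196, 3 in NCI-H1650 and 4 in A549 with IFN-β, so the order of the lines depended on the tool. RSAD2, the antiviral viperin, stood in A549 at 102 CPM in GFP and 131 in ADAR cells with IFN-β, against 0.170 and 0.132 with vehicle, and the difference between ADAR and GFP was 0.35 (SE 0.12, adjusted p = 0.044), a call lost in 7 of 8 fits with 1 library left out. OASL differed there by 0.31, a call lost in 5 of 8, and CCL5, which NF-κB also drives, by 1.84 (SE 0.35, adjusted p = 0.00039). In NCI-H196 the same genes rose by 1.18 (RSAD2), 1.35 (OASL) and 1.31 (CCL5). All of these NCI-H196 calls were lost without GFP sgRNA 1 and were not made by DESeq2.

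**Figure D4:**
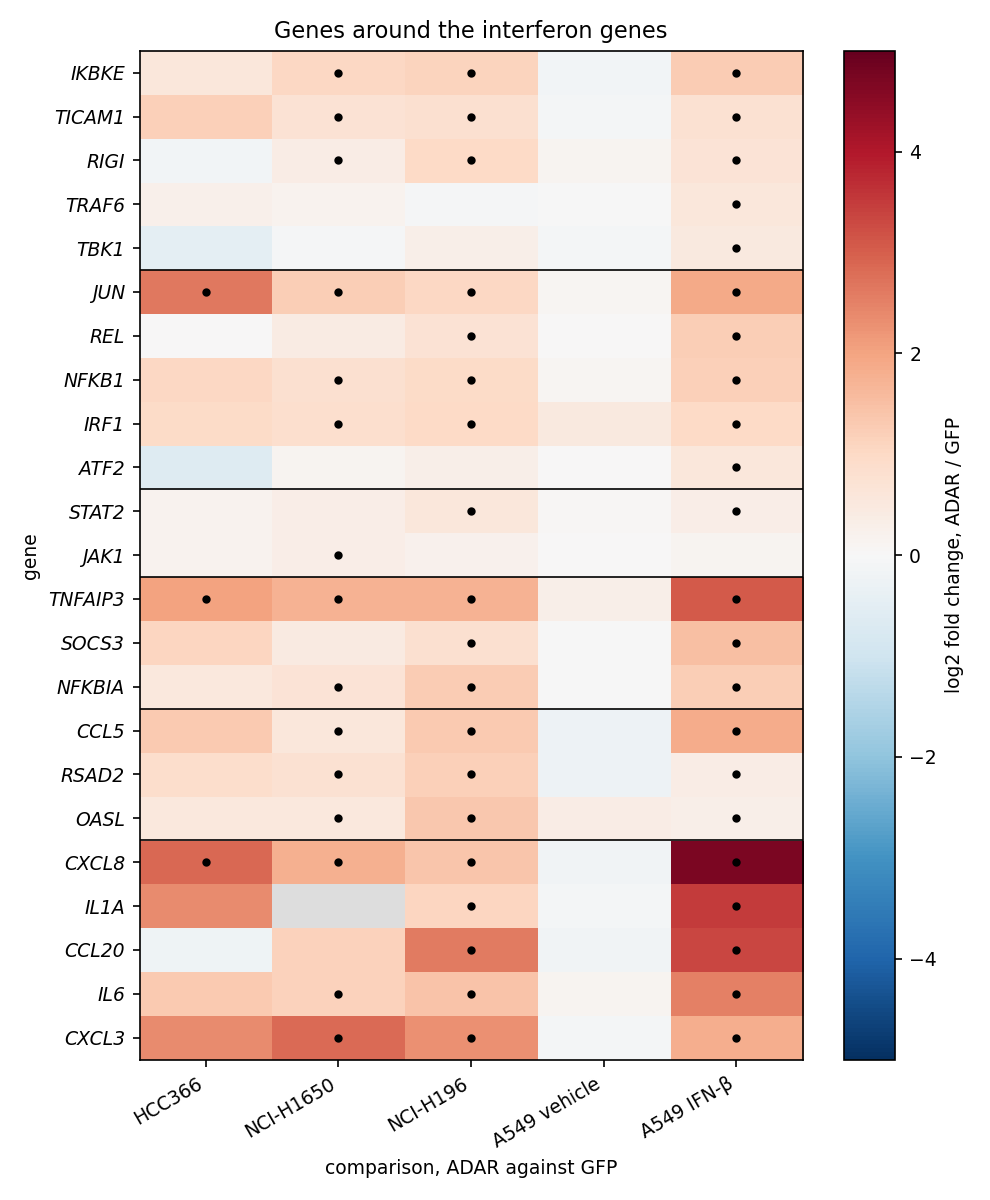
Log2 fold change of ADAR over GFP for the named genes of 6 lists (from top: sensors and adaptors, promoter factors, receptors and JAK/STAT, feedback, interferon-stimulated, NF-κB cytokines) in 5 comparisons; a dot marks an edgeR adjusted p under 0.05 and grey a gene that was not tested. Dots are absent from the A549 vehicle column, and CXCL8 in A549 with IFN-β has the strongest colour at 4.69.

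Whether knockout acted differently with IFN-β than with vehicle in A549 was tested for these genes by the interaction of knockout and treatment. Of the 78, 17 had a higher effect with IFN-β, where 4.07% of all genes tested did, and 2 a lower one, where 0.977% did. These counts too come from lists chosen with earlier results known and are no test of the lists. The 7 cytokine genes tested were all among the 17, with CXCL8 at 4.88 (SE 0.40, adjusted p = 2.3e-09) and CCL20 at 3.50. ISG15 and OAS1, both interferon-stimulated, were the 2 with a lower effect (−1.03 and −0.65), named after their values were seen. Both calls were lost without GFP vehicle sgRNA 1, ADAR vehicle sgRNA 2 or ADAR IFN-β sgRNA 2, and that of ISG15 also without GFP vehicle sgRNA 2 and with DESeq2.

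The genes whose log2 CPM followed the members most closely over the 20 libraries were listed by Pearson's r. For IFNB1 they were AHR (0.94), the aryl hydrocarbon receptor, EGR4 (0.94), ZNF16 (0.93), ATF3 (0.92) and FOSB (0.92); EGR4, ATF3 and FOSB are immediate early or stress-induced factors. For type III they were AHR (0.95), EGR4 (0.94), ZNF16 (0.93), FOSB (0.92) and CYP1A1 (0.92). In A549, AHR had means of 168 CPM with ADAR knockout and IFN-β and 50.6 to 56.0 in the other 3 conditions. EGR4 stood at 2.04 CPM with both and at 0 in the other 3. These libraries share line, treatment and depth, and the points are 2 per condition. Listed over the 8 A549 libraries alone, 1 of these 10 gene and pattern pairs came up again.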

How the data were processed

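RNA was depleted of ribosomal RNA, made into directional libraries and sequenced as 150-base pairs. The authors used STAR for alignment, to hg19, and HTSeq for counting (versions and annotation release not given in the sources used here; the submitters' processing notes also name DESeq2); the deposited values are raw whole-number counts per gene, 1 file per library, with HTSeq's summary rows kept out of totals. Identifiers were matched to symbols for 55727 of 58233 rows, holding 97.4% of reads. Gene models and sequences came from GRCh37, the assembly of hg19.

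The 4 interferon genes and the gene lists were chosen with earlier results of these data known. Members were therefore described by reads, CPM and ratios of pooled reads with exact intervals (scipy 1.17.1), with a floor of 3 reads over a group at 0. For all other genes, ADAR was set against GFP with edgeR 4.0.16 (limma 3.58.1, R 4.3.3): TMM, filterByExpr by condition, quasi-likelihood test, Benjamini-Hochberg over all genes tested, threshold 0.05, with a fit per line and the 8 A549 libraries in one fit. Adjusted p-values without another tool named are edgeR's. Each SE is the absolute log2 fold change divided by the square root of that test's F statistic. The steps were tested on simulated data. Alternatives were DESeq2 1.42.0, other size factors, no filter, all 20 libraries in one fit, blocks by sgRNA number and leaving out each library. The text names up to 5 called genes per list by size of change in A549 with IFN-β, or, with fewer than 2 called, also the 2 of highest mean level, and every other interferon gene with a read; some genes these rules would name are not reported here. The 2 libraries of a condition are different sgRNAs. The edgeR p-values rest only on the spread between such libraries, with each gene's spread drawn toward that of all genes tested. Genes most like the members were ranked by Pearson's r of log2 CPM (prior count 2). Libraries held 62679 to 19520189 reads on genes. Intervals and floors cover counting error only. Libraries of the same condition differed beyond sampling noise (chi-square per degree of freedom 1.34 to 17.5) and no files were identical.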

Additional observations from a re-analysis of the deposited data

Results flagged for a closer look

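The effect of ADAR knockout in A549 differed between IFN-β and vehicle for 12 of the named genes, by edgeR's interaction test over 8 libraries with adjusted p under 0.05. Most named genes were picked by their change in A549 with IFN-β, so the test reuses libraries that chose them and favours a call. Of all genes tested, 4.07% had a higher effect with IFN-β and 0.977% a lower one. The members themselves were not tested. Each value is the log2 fold change with IFN-β minus that with vehicle. Among the cytokine genes it was 4.88 for CXCL8, 3.57 for IL1A, 3.50 for CCL20, 2.37 for IL6 and 1.91 for CXCL3. Among the feedback genes it was 2.77 for TNFAIP3, 1.55 for SOCS3 and 1.23 for NFKBIA. Among the promoter factors it was 1.81 for JUN, 1.22 for REL and 1.07 for NFKB1, and for the kinase IKBKE it was 1.39. Of these, IL1A lost its call in 6 of 8 fits that left out 1 library and with DESeq2, and CXCL3 without ADAR IFN-β sgRNA 2; the other 10 kept theirs in all 8 and with DESeq2.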

How the results depend on the processing

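Counts of the 78 pathway genes called depended on the fit. DESeq2 called 3 in NCI-H196, 14 in NCI-H1650 and 12 in HCC366, against 42, 24 and 6 with edgeR. With no filter on low counts there were 17 in HCC366 and 1 in A549 with vehicle. With all 20 libraries in one fit there were 15 in NCI-H196, 12 in NCI-H1650, 26 in HCC366, 16 in A549 with IFN-β and 11 for the interaction. Same-numbered sgRNAs did not deviate together (correlations of −0.253 to 0.0368), so the numbers do not pair the libraries; a fit with that number as the replicate block gave 19 calls in NCI-H196 and 13 in HCC366, and with crossed pairs, chosen after seeing the data, 17 in HCC366. Leaving out each library in turn gave 0 to 42 calls in HCC366 (0 without GFP sgRNA 1 or 2, 42 and 20 without ADAR sgRNA 1 or 2). It gave 4 to 45 in NCI-H196 (4 without GFP sgRNA 1, 23 and 15 without ADAR sgRNA 1 or 2). It gave 17 to 30 in A549 with IFN-β and 12 to 22 for the interaction, the lowest being without ADAR IFN-β sgRNA 2 in each. The cause was not tested. A condition left with 1 library is assumed to vary like the others.

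The log2 ratio of ADAR over GFP with 1 library left out ran from 0.46 (a bound) to 3.01 for type I and 1.04 to 3.46 for type III in HCC366, and from 3.30 to 4.90 (bounds) for type I and 5.85 (a bound) to 8.42 for type III in A549 with IFN-β. Without NCI-H196 GFP sgRNA 1 the remaining control had 0 reads at a floor above the knockout level and gave no value. Without HCC366 ADAR sgRNA 2, and likewise without NCI-H196 ADAR sgRNA 2, the type I counts were at or under the floor. With IFNL1 alone the type III ratio in A549 became a bound of 5.14, because its GFP libraries hold 0 reads of it. The type III share of reads with IFNL1 alone was 75% in NCI-H1650, 62.5% in HCC366 and 58.6% in A549. With 1 ADAR library left out it was 66.7% to 75% in HCC366, 74.1% to 81.8% in NCI-H196 and 79.3% to 79.8% in A549. Of the 10 gene and pattern pairs most like the members, 1 was listed again over the 8 A549 libraries. A value counted as moved when a count changed by over 1.5 times, or when a ratio or share left the SD between libraries or, where a group had a library at 0, the counting interval (for bounds, a log2 difference of 1): 33 of 129 alternative values did, 96 did not, and no direction reversed.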
